A study of Mus musculus with 17 samples.

Results

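Forkhead transcription factor genes were examined for H3.3, a histone H3 variant whose deposition does not need DNA replication, in mouse newborn lens. The family was taken as every protein-coding gene of chromosomes 1 to 19 in the GENCODE annotation of mm10 (GRCm38) whose symbol is Fox, 1 letter from a to s and a number, with Foxe3 left out, and this gave 40 genes of 20807. For each gene, the H3.3 islands, which are stretches of the genome where a peak caller found more reads than background, were collected over the gene body and 5 kb on each side. This stretch is called the window below. Presence of an island, the bp of the window covered by islands and the reads per kb of island length were then compared among the libraries.

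Chromatin came from lens epithelium and lens fibers of CD1 mice, an outbred strain with no engineered allele or treatment, and each compartment had 2 libraries that the labels call biological replicates. The titles give day 1 after birth, the protocol day 0.5, and the labels give 150 pooled, microdissected lenses for each library. The study's methods give another number of lenses. Islands had been called in each library separately, no sequencing depth was available, and a gene without an island is described as having no called island. The bisulfite libraries and the pooled input of the series were not used here.

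Forkhead factors bind DNA through a winged-helix domain, and some of them, such as FoxA proteins, can open compact chromatin. They pattern endoderm, mesenchyme and neural tissue in the embryo, while FoxO, FoxK and FoxP members act in metabolism, stress response and differentiation in many adult cells. In the eye, Foxc1 is known for its role in the anterior segment and Foxn4 for its role in retinal progenitors. Foxe3, the forkhead gene of the lens epithelium, is not among the 40 genes. H3.3 is found at active promoters and along transcribed genes, and also in some silent regions.

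The 250 bases just upstream of the annotated gene start are shown for 6 members, because some of the counts below ask whether an island lay over the start. Foxo1 and Foxo3 had their start inside an island in all 4 libraries, Foxc1 and Foxs1 in both fiber libraries and in no epithelium library, and Foxa1 and Foxd3 in none. The sequences are from the RefSeq copy of GRCm38, are written 5′ to 3′ on the strand of the gene, and have every CG dinucleotide in capitals.
Foxo1 (chr3:52268086-52268335, plus strand): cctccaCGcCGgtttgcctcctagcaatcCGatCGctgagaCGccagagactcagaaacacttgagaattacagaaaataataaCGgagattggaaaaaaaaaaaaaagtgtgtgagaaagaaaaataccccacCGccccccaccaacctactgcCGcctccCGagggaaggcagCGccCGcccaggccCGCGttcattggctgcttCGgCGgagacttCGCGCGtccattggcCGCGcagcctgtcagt
Foxo3 (chr10:42276756-42277005, minus strand): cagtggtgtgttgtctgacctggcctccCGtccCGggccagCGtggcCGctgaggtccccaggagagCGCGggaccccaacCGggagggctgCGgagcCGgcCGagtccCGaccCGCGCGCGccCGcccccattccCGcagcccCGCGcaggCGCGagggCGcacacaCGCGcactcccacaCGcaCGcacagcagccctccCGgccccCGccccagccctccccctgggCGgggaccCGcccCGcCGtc
Foxc1 (chr13:31806383-31806632, plus strand): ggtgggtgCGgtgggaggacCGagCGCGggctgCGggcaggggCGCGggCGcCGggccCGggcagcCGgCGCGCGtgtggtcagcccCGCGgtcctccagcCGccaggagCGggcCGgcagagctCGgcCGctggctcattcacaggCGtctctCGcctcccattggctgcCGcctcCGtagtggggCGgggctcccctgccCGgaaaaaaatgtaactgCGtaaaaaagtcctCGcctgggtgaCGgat
Foxs1 (chr2:152933209-152933458, minus strand): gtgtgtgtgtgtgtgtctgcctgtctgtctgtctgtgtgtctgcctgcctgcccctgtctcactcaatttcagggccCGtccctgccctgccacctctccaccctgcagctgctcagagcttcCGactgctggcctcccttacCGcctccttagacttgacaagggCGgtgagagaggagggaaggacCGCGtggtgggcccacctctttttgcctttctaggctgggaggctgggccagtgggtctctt
Foxa1 (chr12:57546917-57547166, minus strand): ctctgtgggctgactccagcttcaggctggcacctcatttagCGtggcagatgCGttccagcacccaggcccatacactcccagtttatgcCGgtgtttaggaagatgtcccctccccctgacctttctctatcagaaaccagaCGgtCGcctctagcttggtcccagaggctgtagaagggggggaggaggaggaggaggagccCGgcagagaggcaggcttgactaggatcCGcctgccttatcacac
Foxd3 (chr4:99656049-99656298, plus strand): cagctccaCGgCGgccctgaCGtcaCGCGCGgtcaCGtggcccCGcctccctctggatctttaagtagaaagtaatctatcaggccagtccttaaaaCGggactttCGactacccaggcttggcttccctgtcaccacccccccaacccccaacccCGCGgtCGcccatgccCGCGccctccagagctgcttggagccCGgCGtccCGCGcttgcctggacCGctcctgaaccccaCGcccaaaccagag
The upstream stretch held 20 CG dinucleotides at Foxo1, 32 at Foxo3, 30 at Foxc1, 6 at Foxs1, 7 at Foxa1 and 21 at Foxd3. Thus a CG-rich stretch was present at Foxd3, which had no called island, and Foxs1 had fiber islands over a CG-poor one. Over the 14 members whose start lay in an island in both fiber libraries, the median was 27 CG dinucleotides with a range from 6 to 50, and over the 13 members with no island it was 9 with a range from 2 to 22. Protein-coding genes in general went the same way, with a median of 16 where the start was covered in both fiber libraries and of 8 over all 20802 starts that could be read. The core forkhead motif TGTTTAC, searched on both strands, was in none of the 40 upstream stretches and in 2.67% of those of all genes. The GC box GGGCGG, on both strands, was in 25 of the 40 stretches, 62.5%, against 39.6% of all genes. These letters describe the sequence only.

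The 4 libraries differed in how much had been called, and this bears on every comparison below. Epithelium replicates 1 and 2 held 45.4 and 48.9 Mb of islands and fiber replicates 1 and 2 held 178 and 188 Mb. The median island density was between 27.4 and 28.3 reads per kb in all 4 libraries, without scaling. All 8 lens fiber marker genes had islands in both fiber libraries, where 98.2% to 98.6% of their bodies was covered on average, against 25.3% and 36.9% in epithelium. Of the 5 lens epithelium markers, 4 and 5 had islands in the epithelium replicates, and 4 and 5 in the fiber replicates. On average 23.3% and 48.1% of their bodies was covered in epithelium and 60.1% and 64.5% in fibers. Mean cover was thus higher in fibers for the markers of both compartments. The Foxe3 body was covered over 0% and 100% in epithelium and 100% in both fiber libraries. Of the 4 retina markers, 2 had islands in each epithelium library and 1 in each fiber library. No island covered the pigment epithelium markers (3 genes) or the cornea and skin markers (3 genes). Among the 3 vessel markers, 1 or 2 had islands in each library, and of the 3 macrophage and blood and of the 3 mesenchyme markers at most 1 did. For each gene the exact permutation test, two-sided, counted 6 ways to divide the libraries and had a smallest possible p of 0.33, so that no single gene could pass a threshold.

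Islands were called in 1 or more libraries at 27 of the 40 forkhead genes, and 13 had none. This is 67.5% of the family, against 67.7% of all protein-coding genes. An island was present in both fiber libraries at 22 members (background 55.0%) and in both epithelium libraries at 12 members (background 26.1%). A total of 11 members had islands in all 4 libraries (background 25.2%), and 8 had them in both fiber libraries and in no epithelium library (background 16.0%). No member had islands in both epithelium libraries and in no fiber library, a pattern that 0.235% of all genes showed. As shares of the family these are 55%, 30%, 27.5% and 20%, so that the family as a whole stood close to the background in each of them.

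Covered bp was higher in both fiber libraries than in both epithelium libraries at 18 members, 45%, where 47.4% of all genes had this order. The opposite order was seen at none of the 40 members and at 0.706% of all genes. This split of 18 to 0 changed with the scaling. When covered bp was expressed as a share of all island bp of the library, it became 12 to 7, where 22.7% and 15.3% of all genes had these orders. With the 10389 islands of highest density taken from every library it became 3 to 4, where the background was 16.4% and 5.10%. Epithelium replicate 1 had 10389 islands and so kept all of them, whereas the other libraries kept only their densest.

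The members differed among themselves by gene length. All 13 members with no island had gene bodies between 1.49 and 6.29 kb, and the 11 members with islands in all 4 libraries had a median body of 57.5 kb. Among the 24 members with a body under 10 kb, 11 had an island in at least 1 library (background of such genes 52.2%). Within these short members, 8 had an island in both fiber libraries, 33.3%, where the background was 42.7%, and 2 in both epithelium libraries, 8.33%, where it was 24.3%. All 8 members of 10 to 50 kb had an island somewhere (background 73.6%), 7 of them in both fiber libraries (background 59.3%) and 4 in both epithelium libraries (background 27.6%). All 8 members over 50 kb also had an island somewhere (background 80.7%), 7 of them in both fiber libraries (background 66.1%) and 6 in both epithelium libraries (background 25.9%). Forkhead genes were thus below the background of their length in the short class and above it in both longer classes. The longer classes hold only 8 members each, and the counts by length were not repeated over gene bodies alone. Some members count through islands outside their bodies. These are Foxa3 (10 to 50 kb) in fibers, Foxh1 (under 10 kb) in fiber replicate 2 and Foxk2 (10 to 50 kb) in epithelium.

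**Figure D1:**
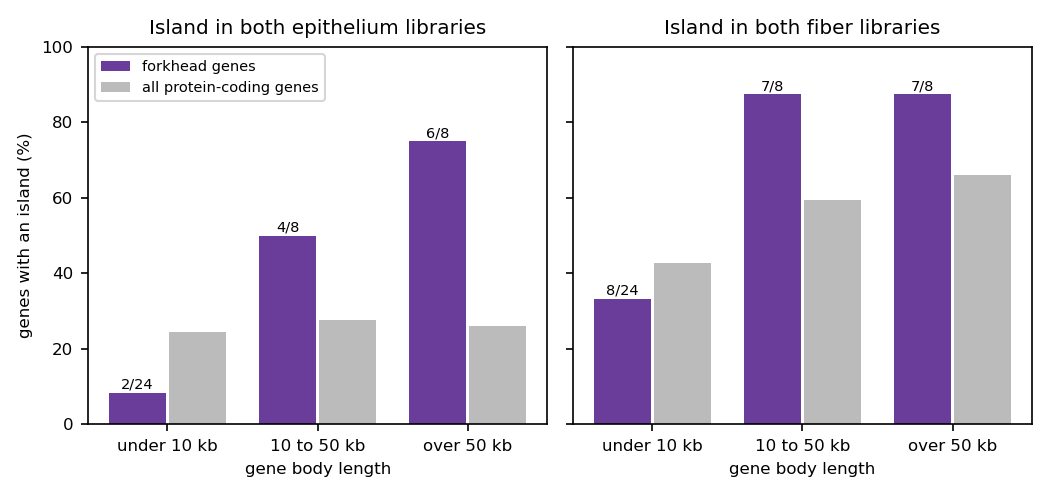
Share of genes (%) with an H3.3 island in both epithelium libraries (left) and in both fiber libraries (right), by length of the gene body, for forkhead genes (purple, with counts) and all protein-coding genes (grey). In the left panel the purple bars stand at 8.33%, 50% and 75%, while the grey bars stay between 24.3% and 27.6%.

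Exon structure went with gene length, with a median body of 2.7 kb for members with 1 exon and 16.4 kb for the others. The 12 members with a single exon in every coding transcript were Foxb2, Foxc1, Foxc2, Foxd1, Foxd2, Foxd3, Foxd4, Foxe1, Foxl1, Foxl2, Foxq1 and Foxs1. None of these 12 had an island in both epithelium libraries, and 4 had one in both fiber libraries. Of the 28 members with more than 1 exon, 12 had an island in both epithelium libraries and 18 in both fiber libraries. The share of all genes by exon number was not counted, so that these counts have no background and cannot be told apart from gene length.

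**Figure D2:**
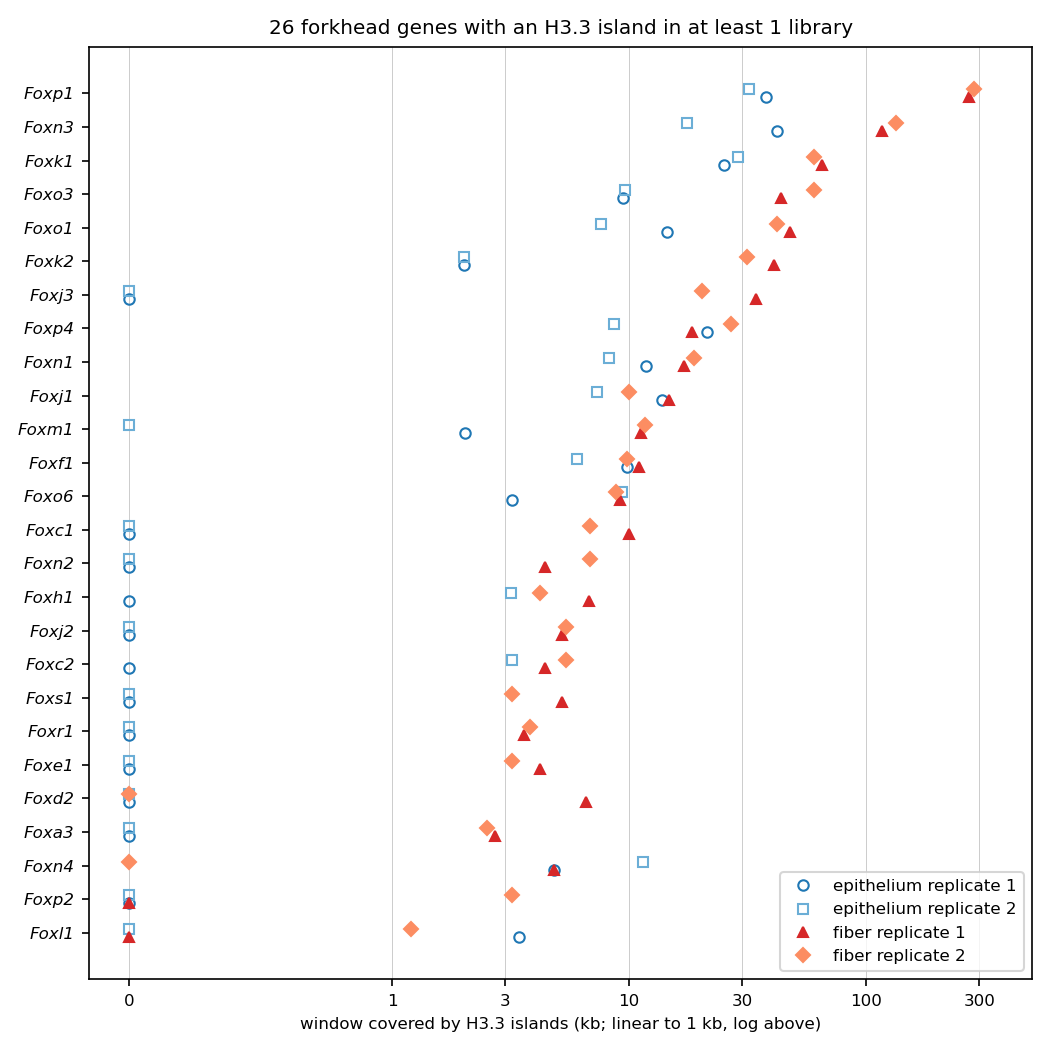
Length of the window covered by H3.3 islands (kb, linear up to 1 and logarithmic above) for 26 of the 27 forkhead genes with an island in at least 1 library, ordered by the fiber mean, with 1 symbol for each library. Foxp1 is at the top with 270 and 285 kb in fibers, and 8 genes have both epithelium symbols at 0 and both fiber symbols above 0.

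The endoderm pioneer genes Foxa1, Foxa2 and Foxa3 carried almost no H3.3 island. Foxa1 and Foxa2, which open chromatin for liver and gut programmes, had none in any library. Foxa3 had 2717 bp of its window covered in fiber replicate 1 and 2517 bp in fiber replicate 2, and none in epithelium. Neither island touched the Foxa3 body: both lay over the neighbouring gene Irf2bp1, starting 12538 and 12738 bp downstream of the Foxa3 start. Foxa3 is therefore counted among the 8 fiber-restricted members through its neighbour alone.

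Among the 12 members that act in mesenchyme and the anterior eye segment, 6 had an island, 4 of them in both fiber libraries and 1 in both epithelium libraries. Foxd1, Foxd3, Foxd4, Foxf2, Foxl2 and Foxq1 had none. This group thus includes Foxd3, a gene of neural crest, and Foxl2, a gene of ovary and eyelid, among those with no called island.

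Foxc1, required for the anterior segment of the eye, had 10 kb of its window covered in fiber replicate 1 and 6.80 kb in fiber replicate 2, against 0 kb in both epithelium libraries. The fiber mean was 8.40 ± 2.26 kb (SD, n = 2; exact two-sided permutation test, p = 0.33, the smallest possible). In fiber replicate 1, a single island of 10000 bp ran from 3432 bp upstream of the start to 6567 bp downstream and covered the whole gene. In fiber replicate 2 an island of 4600 bp ran from 2632 bp upstream to 1967 bp downstream, and a second one of 2200 bp lay beyond the gene. No other protein-coding gene lies in the Foxc1 window. The 2 fiber libraries had 4.60 kb in common, and the Foxc1 islands were sparse, with 22.6 and 25.1 reads per kb, above only 8.35% and 28.8% of the islands of their libraries.

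Foxs1, expressed in pericytes and neural crest derivatives, had 5.20 and 3.20 kb covered in the fiber libraries and none in epithelium, with the start and the whole body of 1311 bp inside an island in both. Its density was 22.1 reads per kb in fiber replicate 1 and 35.6 in fiber replicate 2, so that the replicates were far apart. Foxd2 had an island of 6600 bp over its start and body in fiber replicate 1 alone.

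Foxf1, Foxc2 and Foxl1 are neighbours on chromosome 8, inside a longer annotated gene model, Gm20388, that spans all of them, and Mthfsd also reaches the Foxf1 window. Foxf1, a regulator of lung and gut mesenchyme, had islands in all 4 libraries. Its window was covered over 9.74 and 6 kb in epithelium and over 10.96 and 9.74 kb in fibers. The groups overlapped, with means of 7.87 ± 2.65 kb and 10.4 ± 0.86 kb (SD, n = 2; exact two-sided permutation test, p = 0.67). Of the 10344 bp covered in either epithelium library, 9344 bp were also covered in a fiber library. Fiber islands covered 79.6% and 70.8% of the window, so a large overlap would arise at most positions and does not show shared sites. Foxf1 was 1 of 11 members with islands in all 4 libraries, and its islands had 29.6 and 30.7 reads per kb in epithelium and 27.2 and 27.5 in fibers, higher in epithelium in each comparison of 2 libraries. Of all genes with islands in all 4 libraries, 16.3% had this order. The value of fiber replicate 1 includes islands of 11200 and 22200 bp that ran beyond the window. Islands that crossed 215 to 2014 bp downstream of the start had 30.5 and 32.7 reads per kb in epithelium. In fibers those islands had 35.5 and 28.7, so that the compartments overlapped there.

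Foxc2, known for its role in lymphatic vessels and valves, had 1 island over its start in 3 libraries. This covered 3200 bp in epithelium replicate 2, 4400 bp in fiber replicate 1 and 5400 bp in fiber replicate 2, and epithelium replicate 1 had none. The whole epithelium island lay within fiber islands. Foxl1, a gene of gut mesenchyme, had an island of 1200 bp inside the gene in fiber replicate 2 and, in epithelium replicate 1, one beyond the gene, and the 2 did not overlap.

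Of the 4 members that act in brain and retina, Foxb1 and Foxb2 had no island. Foxn4, which acts in retinal progenitors on the way to amacrine and horizontal cells, was the only member with islands in both epithelium libraries and not in both fiber libraries. Its window was covered over 4.80 kb in epithelium replicate 1, 11.4 kb in epithelium replicate 2, 4.80 kb in fiber replicate 1 and 0 kb in fiber replicate 2. The compartments met at 4.80 kb and were not separated, with means of 8.12 ± 4.70 kb in epithelium and 2.40 ± 3.39 kb in fibers (SD, n = 2; exact two-sided permutation test, p = 0.67). Over the gene body alone the cover was 4207 and 7000 bp in epithelium and 4007 and 0 bp in fibers, so that the compartments were then separated, by 200 bp at their nearest. The islands of both epithelium libraries shared 3.80 kb in the first part of the gene, and their density was low, at 23.3 and 23.7 reads per kb.

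A retina marker moved with Foxn4. The body of Rax was covered over 44.5% and 23.6% in the epithelium libraries and 0% in both fiber libraries. The photoreceptor gene Crx had no island in any library. The mean cover of the 4 retina markers was 20.5% and 7.64% in epithelium and 4.48% and 0.763% in fibers. The part of retinal cells in the Foxn4 result was not tested.

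Among the 8 members of cilia, ionocytes, thyroid, thymus and early embryo, 5 had an island in both fiber libraries and 2 in both epithelium libraries. Foxi1, the ionocyte gene, Foxi2 and Foxi3 had none. Foxe1, the thyroid gene, had 4.20 and 3.20 kb covered in fibers and none in epithelium, in an island across the start that reached 2791 and 1991 bp into the gene. The fiber mean was 3.70 ± 0.71 kb (SD, n = 2), the replicates shared 3.20 kb, and no other protein-coding gene lies in the window. Foxr1 had 3.6 and 3.8 kb covered in fibers and none in epithelium. Unlike those of Foxe1, the Foxr1 islands began 4136 bp downstream of the start in both fiber libraries and reached past the end of the gene.

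Foxj1, the master gene of motile cilia, had islands in all 4 libraries. The cover was 13.7 kb in epithelium replicate 1, 7.30 kb in epithelium replicate 2, 14.7 kb in fiber replicate 1 and 9999 bp in fiber replicate 2, of a window of 14.7 kb. The compartments overlapped, with means of 10.5 ± 4.52 kb and 12.3 ± 3.32 kb (SD, n = 2; exact two-sided permutation test, p = 0.67). In both fiber libraries the whole Foxj1 body was covered, and in epithelium 78.7% and 68.1% of it. Islands of 3 libraries ran on into the neighbour Rnf157.

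Foxn1, the gene of thymic epithelium and hair, also had islands in all 4 libraries, most of them inside the gene. The cover was 11.8 and 8.20 kb in epithelium and 17.0 and 18.8 kb in fibers, with means of 10 ± 2.55 kb and 17.9 ± 1.30 kb (SD, n = 2). All 4 libraries had an island that crossed the stretch between 13358 and 16157 bp downstream of the start. In the fiber libraries these were the islands of 7400 and 8000 bp with 39.3 and 39.0 reads per kb, denser than 97.8% and 96.6% of the islands of their libraries. The Foxn1 start lay in an island in epithelium replicate 1 alone, and 1 island of fiber replicate 1 lay upstream of the gene over Slc13a2. As a share of all island bp, the order of the compartments turned, with 260 and 168 bp per Mb of islands in epithelium and 95.4 and 100.1 in fibers.

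Foxh1, a partner of Smad proteins in Nodal signalling, had islands in epithelium replicate 2 and both fiber libraries. The cover was 3.18 kb in epithelium replicate 2, 6.78 kb in fiber replicate 1 and 4.20 kb in fiber replicate 2. The gene body itself was covered in epithelium replicate 2 and fiber replicate 1 only, and the other islands lay over its neighbours Kifc2, Cyhr1 and Ppp1r16a.

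The FoxK genes, which repress autophagy genes and promote glycolysis, had islands in all 4 libraries. Foxk1 was covered over 25.2 and 28.8 kb of its window in epithelium and over 65.0 and 60.0 kb in fibers. The compartments did not overlap, with means of 27.0 ± 2.55 kb and 62.5 ± 3.54 kb (SD, n = 2), a ratio of 2.32 (exact two-sided permutation test, p = 0.33, the smallest possible). This was 92.2% and 85.1% of the window in fibers, and an island of 36800 bp in fiber replicate 1 ran from 3896 bp upstream of the start to 32903 bp into the gene. The fiber replicates shared 58.0 kb, while the epithelium replicates shared 10.2 kb. Of what either epithelium library covered, 94.1% lay in fiber islands, which themselves covered nearly all of the window. The start was covered in both fiber libraries and in no epithelium library.

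Foxk1 was also 1 of 2 members, with Foxn1, where the density was higher in both fiber libraries than in both epithelium libraries. It was 27.9 and 27.0 reads per kb in epithelium and 31.0 and 30.7 in fibers, with means of 27.5 ± 0.60 and 30.9 ± 0.22 (SD, n = 2). Of the 5241 genes with islands in all 4 libraries, 30.9% had this order. As a share of all island bp of the library, Foxk1 took more in epithelium, with 556 and 589 bp per Mb of islands, than in fibers, with 366 and 320 bp per Mb of islands.

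Foxk2 had the largest ratio of covered bp among members with islands in all 4 libraries. The cover was 2.01 and 2.00 kb in epithelium and 40.6 and 31.4 kb in fibers, with means of 2.01 ± 0.0078 kb and 36.0 ± 6.51 kb (SD, n = 2), a ratio of 18.0. The epithelium cover came from 1 island in each library, upstream of the Foxk2 start, and these did not overlap each other. The island of epithelium replicate 1 lay over the neighbour Narf, and no epithelium island entered the Foxk2 body. In fibers, 69.5% and 52.9% of the body was covered, and an island crossed the start in both libraries.

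All 4 members of the FoxJ2 and FoxN group had islands in both fiber libraries, and only Foxn3 had any in epithelium. Foxj2 was covered over 5.20 and 5.40 kb in fibers, Foxn2 over 4.40 and 6.80 kb, and Foxj3 over 34.1 and 20.2 kb, each against 0 kb in both epithelium libraries. At Foxn2 the cover was a single island across the start in each fiber library, and it made up 7.36% and 11.4% of the window. At Foxj2 the island lay over the start in fiber replicate 2 and began 487 bp downstream of it in fiber replicate 1. At Foxj3, 6 and 7 of the 7 annotated coding starts lay in an island in fiber replicates 1 and 2, and the fiber replicates shared 11.6 kb, 42.7% of their mean cover.

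Foxn3, a checkpoint gene with a body of 373505 bp, was covered over 42.0 and 17.6 kb in epithelium and over 116 and 134 kb in fibers. The means were 29.8 ± 17.3 kb and 125 ± 12.6 kb (SD, n = 2), a ratio of 4.19, with no overlap of the compartments. As a share of island bp they overlapped, with 926 and 360 bp per Mb of islands in epithelium and 652 and 713 in fibers, and so they did with equal numbers of the densest islands. The epithelium replicates differed by more than 2-fold and shared 6 kb. Cover was uneven along the gene, with 15.9% and 6.10% of the first of 3 equal parts of the body covered in the fiber libraries, against 51.6% and 55.1% of the last part.

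The FoxO genes, which act downstream of insulin signalling in stress response and autophagy, all had islands in all 4 libraries. Foxo1 was covered over 14.4 and 7.60 kb in epithelium and over 47.8 and 42.2 kb in fibers, with means of 11 ± 4.81 kb and 45 ± 3.96 kb (SD, n = 2), a ratio of 4.09. Foxo3 was covered over 9.40 and 9.60 kb in epithelium and over 43.8 and 60.0 kb in fibers, with means of 9.50 ± 0.14 kb and 51.9 ± 11.5 kb (SD, n = 2), a ratio of 5.46. At both genes the compartments did not overlap, which gives the smallest exact two-sided permutation p of 0.33. As a share of island bp Foxo1 overlapped, with 318 and 156 bp per Mb of islands in epithelium and 269 and 225 in fibers, and with equal numbers of the densest islands both genes did.

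Foxo1 and Foxo3 were the only members whose start lay in an island in both epithelium libraries, 5% of the family, where 7.19% of all genes had this. At the Foxo1 start, the sequence of which is given above, the islands ran from 1935 bp upstream to 2264 bp downstream in epithelium replicate 1 and from 535 bp upstream to 1464 bp downstream in epithelium replicate 2. At the Foxo3 start the fiber islands of 8000 and 7200 bp had 31.0 and 36.0 reads per kb, denser than 77.6% and 92.5% of the islands of their libraries. Foxo6, the remaining FoxO gene, was covered over 3.20 and 9.32 kb in epithelium and over 9.15 and 8.80 kb in fibers, so that the compartments overlapped. The Foxo6 fiber values were close to each other, at 8.97 ± 0.25 kb, and the epithelium values were not, at 6.26 ± 4.33 kb (SD, n = 2; exact two-sided permutation test, p = 1).

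**Figure D3:**
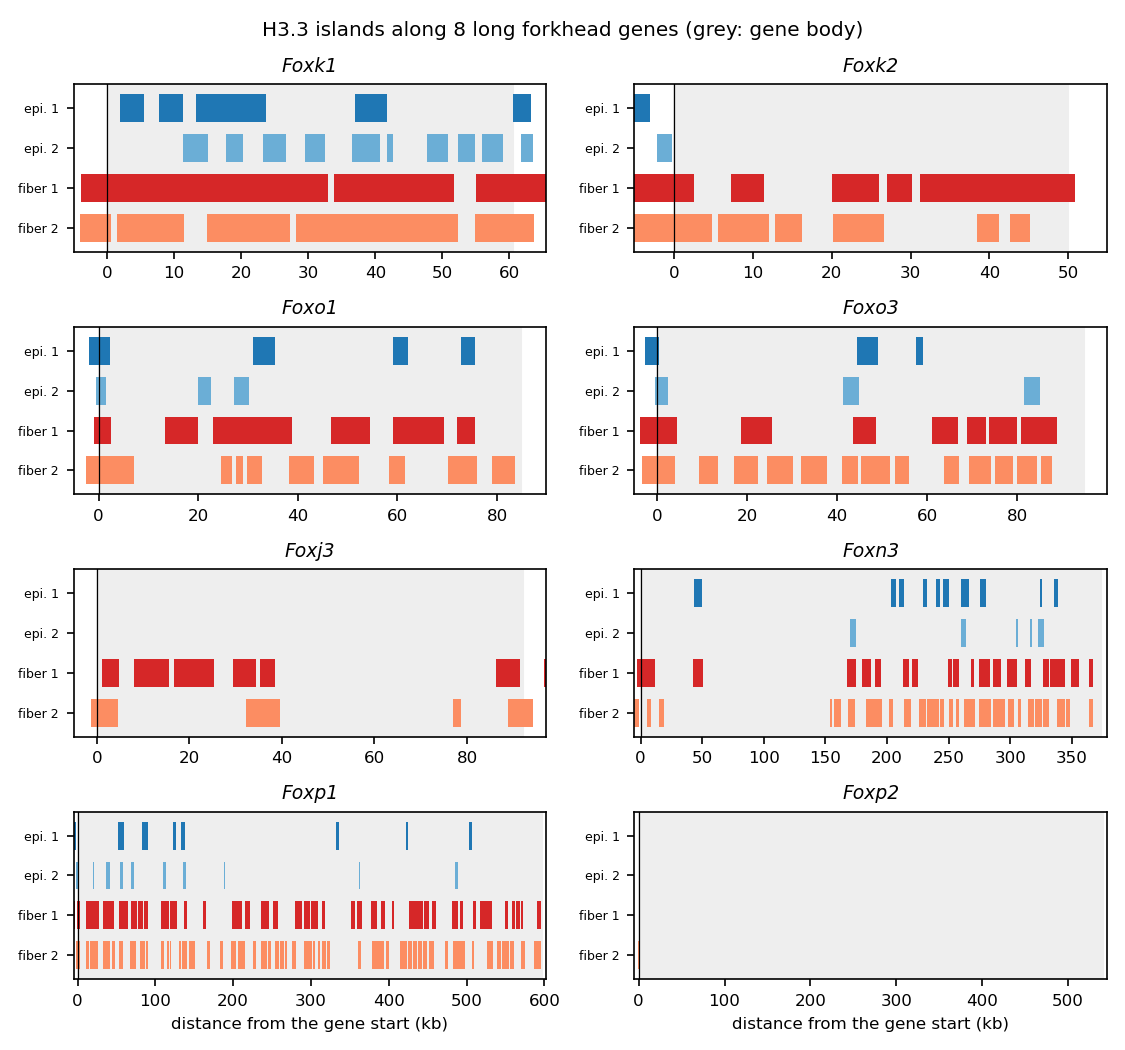
Islands of each library drawn as bars by distance from the gene start (kb) along 8 long forkhead genes, with epithelium in blue, fibers in red and the gene body in grey. Fiber islands fill most of Foxk1 and recur along all of Foxp1, whereas Foxp2 has only an island of 3200 bp at its start in fiber replicate 2.

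The FoxP genes differed widely in cover. Foxp1, a regulator of lung, heart and lymphocyte development, was covered over 37.9 and 32.0 kb in epithelium and over 270 and 285 kb in fibers, the most of any member. The means were 35.0 ± 4.19 kb and 278 ± 10.4 kb (SD, n = 2), a ratio of 7.94, and the compartments did not overlap (exact two-sided permutation test, p = 0.33). The fiber cover was made of 40 and 50 islands of 2000 to 17400 bp, and 173 kb was covered in both fiber libraries. It was spread evenly, with 42.9% to 50.1% of each of 3 equal parts of the body covered in each fiber library. In epithelium, by contrast, 12.0% and 12.4% of the first part was covered and 1.10% to 3.41% of each of the others. Foxp1 also took a larger share of island bp in fibers, with 1520 and 1518 bp per Mb of islands, than in epithelium, with 836 and 655. The gene model Gm20696 overlaps the Foxp1 window.

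Foxp2, known for its role in brain circuits of vocal learning, has a body of 540629 bp, close to the 597384 bp of Foxp1. It had a single island of 3200 bp across the start in fiber replicate 2 and none elsewhere, so that 0.581% of its window was covered in that library, against 46.9% of the Foxp1 window. Foxp4 was covered over 21.2 and 8.60 kb in epithelium and over 18.4 and 27.0 kb in fibers. The compartments overlapped at Foxp4, with means of 14.9 ± 8.91 kb and 22.7 ± 6.08 kb (SD, n = 2; exact two-sided permutation test, p = 0.67). The Foxp4 start was covered in both fiber libraries and in no epithelium library.

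Foxm1, which drives genes of mitosis, had 2.03 kb and 0 kb of its window covered in epithelium and 11.2 and 11.6 kb in fibers. The epithelium island lay upstream of the gene over Tulp3 and Rhno1. In fibers the Foxm1 start was covered in both libraries, with 39.3% and 30.2% of the body. The fiber islands at the start also reached Rhno1, which begins near it, so that cover of Foxm1 and of Rhno1 cannot be told apart there.

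Over the family, the start lay in an island in both fiber libraries at 14 members (background 33.1%). These were Foxc1, Foxc2, Foxe1, Foxf1, Foxj1, Foxk1, Foxk2, Foxm1, Foxn2, Foxo1, Foxo3, Foxp1, Foxp4 and Foxs1. At 8 of them no epithelium library had an island over the start (background 16.4%). As shares of the 40 members these were 35% and 20%, again near the background.

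The density of islands was compared in reads per kb, not scaled to the library. In the 11 members with islands in all 4 libraries, the ratio of fiber to epithelium reads per kb had a median of 0.98 and ranged from 0.88 at Foxk2 to 1.12 at Foxk1. When each fiber library was set against each epithelium library, which gives 4 ratios, the median lay between 0.978 and 1.04, on both sides of 1. All 5241 genes with islands in all 4 libraries had a median of 1.02. In the same 11 members, the ratio of covered bp had a median of 2.32 and ranged from 1.18 at Foxj1 to 18.0 at Foxk2, where all such genes had a median of 2.12. Fibers thus had more of these windows covered, at about the same unscaled number of reads per kb of island. Over all islands the median was also alike among the libraries, between 27.4 and 28.3 reads per kb. Stretches without a called island do not enter this density, so it does not measure the H3.3 level of a whole window. When reads were divided by the reads in islands of the library, the median density ratio of the 11 members became 0.26.

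**Figure D4:**
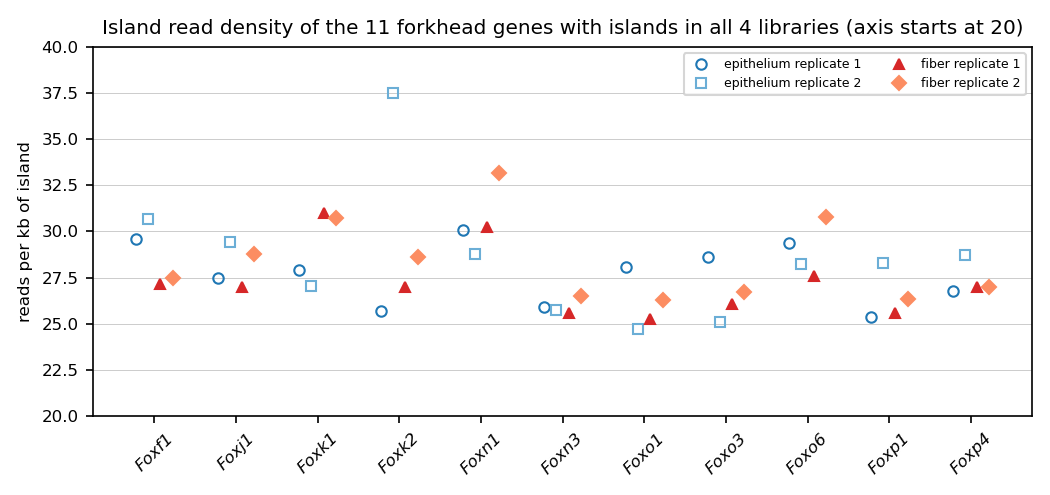
Reads per kb of island (axis from 20 to 40) in each library for the 11 forkhead genes with islands in all 4 libraries. Most symbols lie between 25 and 31 reads per kb in both compartments, and Foxk1 has both fiber symbols above both epithelium symbols.

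The 8 members with islands in both fiber libraries and in no epithelium library were Foxa3, Foxc1, Foxe1, Foxj2, Foxj3, Foxn2, Foxr1 and Foxs1. When the 10389 islands with the most reads per kb were taken from every library, Foxj3 alone kept this pattern, with 3.6 and 1.6 kb covered, and 5.38% of all genes had it. These Foxj3 islands were at different places, 1197 to 4796 bp downstream of the start in fiber replicate 1 and 76997 to 78596 bp in fiber replicate 2. When the 10389 islands with the most reads were taken, Foxj3 and Foxa3 kept the pattern (background 4.80%). The share of all genes with this pattern thus fell along with that of the family. Both selections left epithelium replicate 1 whole and cut the other libraries. Foxk1 still had cover in all 4 libraries in both selections, with 25.2, 22, 65.0 and 55.4 kb in the first of them, and Foxp1 then had 37.9, 28.4, 43.4 and 36.8 kb, so that its compartments overlapped.

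Other families of transcription factor genes gave different shares by the same count. Of the 39 Hox cluster genes, 32 were without any island and none had one in both libraries of a compartment. Of the 7 Maf genes, which include the lens regulator Maf, 6 had an island in both fiber libraries and 4 in all 4 libraries. Hox genes lie side by side and share islands, and the differences between families were not tested.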

How the data were processed

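H3.3 ChIP-seq was analysed in 2 epithelium and 2 fiber libraries. The authors mapped reads to mm10 with BWA, and SICER2 was run by them on every library (window 200 bp, gap 600 bp, false discovery rate 0.01). The deposited lists hold the position and the read count of each island, not normalized. Sequencing depth, and the use of the input in calling, are not given in the sources used here.

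Islands with at least 1 bp in a gene body widened by 5 kb were assigned to the gene, for all 20807 protein-coding genes of GENCODE vM21. Reads per kb divides the reads of these islands by their whole length. Members were not tested as a set. Each member's covered bp was compared by an exact permutation test over libraries, and counts were set beside the share of all genes. The members and lists were chosen with earlier results of these data known. Every member is counted, 1 member and some markers are not reported here by name, and values per library are given for those with islands in all 4 libraries or in both fiber libraries alone, with others by role. Gene starts are the outermost annotated starts. Positions count from 1. Covered bp was identical to that of bedtools 2.31.1 in 160 of 160 pairs of member and library, and the steps were tested on simulated data. Python 3.11.15, numpy 2.4.6 and pysam 0.24.0 were used. Alternatives changed the window, the islands taken, the scaling and the libraries kept.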

Additional observations from a re-analysis of the deposited data

How the results depend on the processing

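The number of members with an island in both fiber libraries, 22, fell to 10 and 13 with equal numbers of islands taken by reads per kb and by read count, and to 13 with islands of at least median density, where the share of all genes fell from 55.0% to 26.5%, 29.8% and 37.3%. The number with both fiber libraries and no epithelium library, 8, became 1, 2 and 3 in the same order (all genes 5.38%, 4.80% and 13.8%), and that with covered bp higher in fibers, 18, became 3, 8 and 11 (all genes 16.4%, 22.6% and 32.5%). The number with an island in both epithelium libraries, 12, became 7 within 2.5 kb of the gene start, where the share of all genes fell from 26.1% to 12.2%. Covered bp higher in epithelium, 0 members, became 4 with equal numbers of islands by reads per kb (Foxf1, Foxj1, Foxn4 and Foxp4, all genes 5.10%). With equal numbers by read count it was 1 (all genes 3.24%) and over the gene body alone 1 (all genes 0.817%), Foxn4 in both. As a share of all island bp it was 7 (all genes 15.3%). Taking equal numbers kept every island of epithelium replicate 1 and cut the other libraries. The median density ratio, 0.98, became 1.11 with equal numbers by reads per kb, and 0.26 when reads were divided by the library's reads in islands, which are several times more in fibers. The cause was not tested.

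Leaving out each library in turn gave 22 to 25 members with an island in every fiber library kept (all genes 55.0% to 63.7%). In every epithelium library kept it gave 12 to 14 (all genes 26.1% to 37.3%), and 9 to 10 had fiber islands alone (17.6% to 25.1%). Covered bp was higher in fibers at 19 to 21 (all genes 50.2% to 57.4%) and lower at 0 to 2 (1.52% to 2.88%). The median density ratio was 0.96 to 1.01. Leaving out a library turned the difference of covered kb at Foxj1 to -1.35 without epithelium replicate 2 and -0.50 without fiber replicate 1, with a highest value of 5.05, and at Foxo6 to -0.35 without epithelium replicate 1, with a highest value of 5.77. As bp per Mb of islands in the library, the fiber minus epithelium difference became -112 at Foxf1, -158 at Foxj1, -230 at Foxk1, -116 at Foxn1, -81.5 at Foxo6 and -198 at Foxp4. The other 13 of 19 named members kept the direction of their means, and 11 of them stayed higher in both fiber libraries, while Foxn3 and Foxo1 overlapped. With the replicate numbers as pairs (replicate block), the difference at Foxk1 stayed 35.5 kb with an exact p of 0.50, the smallest that 2 pairs allow, and no call changed. The replicate differences of the compartments had a correlation of -0.0029 over the 5241 genes with islands in all 4 libraries. This value cannot tell whether the numbers mark pairs, because a shift common to all genes does not enter it. In both compartments replicate 2 had more islands than replicate 1, with 14434 against 10389 in epithelium and 35940 against 27059 in fibers.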
